A study of Mus musculus with 6 samples.

Results

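The genes of the UHRF, DNA methyltransferase and TET families, with *Tdg*, set and remove methyl groups on cytosine, and their transcript levels were examined in immortalized mouse fibroblasts (MF). The group holds 9 genes, *Uhrf1*, *Uhrf2*, *Dnmt1*, *Dnmt3a*, *Dnmt3b*, *Tet1*, *Tet2*, *Tet3* and *Tdg*, and all 9 were found by symbol among the 19078 genes of the deposited table. *Uhrf2* was chosen from the authors' own comparison of the groups, whose values are not used here, and the other 8 by function, as its paralog and the writers and erasers of DNA methylation. RNAseq had been performed on 3 libraries of pooled *Ms4a15* OE cells and 3 control libraries. Both groups descend from male embryonic fibroblasts that carry conditional *Gpx4* alleles and Cre-ERt2. *Ms4a15* OE cells hold a CRISPR activation system and a guide that raises *Ms4a15* transcription from its own locus, the guide being brought in by lentivirus. Control cells received empty lentivirus, although their label gives the genotype as wild type. The study's methods do not say outright whether control cells also hold the activation system. *Ms4a15* OE cells were a pool rather than a clone, and nothing in the labels says whether the 3 libraries of a group came from separate cultures. No treatment is named for these cells.

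The value used for each gene is the authors' mean, taken over all 6 libraries, of read counts divided by the size factor of each library, and is termed the mean normalized count here. It averages *Ms4a15* OE and control cells and carries no spread between replicates. The difference between the groups was therefore not analysed here, and a mean says nothing of how the reads of a gene were divided among libraries. The order of genes is given as a description, without a test. In total the means of all genes added up to 40991755. The size factors of the libraries ran from 0.887 to 1.14, as read from the steps between the lowest values of the table, and could not be assigned to groups. Fibroblast markers were present throughout, with all 12 at 100 or more and *Col1a2* and *Vim* at 135155 and 115135. Of the epithelial markers 0 of 7 reached 100, with *Epcam* at 0.176, and the 5 pluripotency and germ cell markers in the table stayed under 1. Of the 6 myeloid markers found, 2 reached 100, *Lyz2* at 534 and *Cd68* at 164, while *Ptprc*, which defines blood cells, was at 11.1. Of 5 endothelial markers 1 reached 100, *Cdh5* at 106.5. Their part in the levels below was not tested.

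As background, DNMT3A and DNMT3B place methyl groups on unmethylated CpG sites, and DNMT1 copies them onto the new strand after replication. UHRF1 binds hemimethylated DNA and brings DNMT1 to it through ubiquitylation of histone H3. UHRF2 has the same domains and does not replace UHRF1 in maintenance. TET enzymes oxidize methylated cytosine, and TDG, a glycosylase, cuts out the more oxidized forms so that repair can put back cytosine. In fibroblasts and other dividing somatic cells, maintenance genes follow the cell cycle and de novo methyltransferases are low compared with embryonic cells.

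Promoter windows of the UHRF genes and of *Dnmt1* are shown because these are the paralogs and the highest pair in the group. Several starts are listed for some of the genes, 2 for *Uhrf1* and 3 for *Dnmt1*, and the window with the highest CpG ratio is shown. Windows run from 250 bases before to 50 bases after a start site in RefSeq on GRCm38.p6, the assembly also known as mm10, and are written in the direction of the gene. Capitals mark every match on either strand to the motifs searched, which were the E2F motifs TTTCCCGC, TTTGGCGC, TTTCGCGC and TTTGCCGC, the GC box GGGCGG, the CCAAT box and the TATA box TATAAA. Matches that overlap run together.
*Uhrf1*, chr17:56304063-56304362, forward strand: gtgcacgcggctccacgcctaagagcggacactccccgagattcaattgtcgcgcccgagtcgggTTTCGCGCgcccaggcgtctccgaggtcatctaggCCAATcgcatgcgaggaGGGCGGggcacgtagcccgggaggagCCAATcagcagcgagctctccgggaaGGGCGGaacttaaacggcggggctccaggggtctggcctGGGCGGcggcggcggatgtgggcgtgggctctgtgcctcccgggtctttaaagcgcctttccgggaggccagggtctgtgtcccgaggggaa
*Uhrf2*, chr19:30030263-30030562, forward strand: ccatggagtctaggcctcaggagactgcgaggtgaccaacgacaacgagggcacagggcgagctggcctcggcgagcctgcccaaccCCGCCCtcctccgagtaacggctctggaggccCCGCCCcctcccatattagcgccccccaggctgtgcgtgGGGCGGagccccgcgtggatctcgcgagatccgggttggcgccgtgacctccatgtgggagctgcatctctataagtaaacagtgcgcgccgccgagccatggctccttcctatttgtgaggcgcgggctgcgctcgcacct
*Dnmt1*, chr9:20952574-20952873, reverse strand: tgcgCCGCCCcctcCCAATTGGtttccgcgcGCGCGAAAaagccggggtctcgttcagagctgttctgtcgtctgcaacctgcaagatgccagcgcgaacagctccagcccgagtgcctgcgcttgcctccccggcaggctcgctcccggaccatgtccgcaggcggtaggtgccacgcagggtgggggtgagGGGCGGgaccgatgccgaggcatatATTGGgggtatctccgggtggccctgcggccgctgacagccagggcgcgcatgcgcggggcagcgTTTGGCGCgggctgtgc
In these windows an E2F motif lies 185 bases before the *Uhrf1* start used. For *Dnmt1* a match lies 219 bases before the start used, and another begins 34 bases into the transcript from it. Both genes also have a listed start further upstream, with windows at chr17:56303087-56303386 and chr9:20952930-20953229. All these matches lie downstream of those starts. Of all 32851 windows in the reference, 2.26% hold at least 1 of the 4 E2F motifs. Of the 14 windows of the 9 genes, those of *Uhrf1* and *Dnmt1* printed here were the ones with a match. The windows of the other starts of both genes, including those at the outer ends of the gene models, had none. The *Uhrf2* window has 3 GC boxes and none of the E2F, CCAAT or TATA letters, and GC boxes are in 35.7% of all windows and in at least 1 window of 8 of the 9 genes. The CCAAT box was found for *Uhrf1*, *Dnmt1*, *Tet3* and *Tdg*, against 37.4% of all windows, and TATAAA for 0 of the 9 genes, against 13.6%. These shares are per window, whereas a gene was counted when any of its windows matched. The median observed over expected CpG ratio was 0.384 over all windows and 0.76 over the 14 windows of the 9 genes. The E2F motifs and the GC box contain CpG, and the part of composition in these counts was not tested. A match to these letters is not evidence of binding.

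The maintenance pair stood far above the other genes. *Dnmt1*, on chromosome 9 from 20907209 to 20959888 with 39 exons in the transcript used, had a mean normalized count of 14724, the highest of the group. *Uhrf1*, on chromosome 17 from 56303321 to 56323486, had a mean of 8755. Because longer transcripts yield more reads, genes are compared per kb of coding length, taken from GENCODE for the transcript with the longest coding sequence. On that scale *Uhrf1* was at 3732 and *Dnmt1* at 3030 mean normalized counts per kb. *Uhrf1* was thus above 87.1% and *Dnmt1* above 84.2% of 15483 protein-coding genes. Together they held 74.2% of the summed level per kb of the 9 genes, and 80.8% when the whole transcript was used as the length. Which of them was higher depended on the length, since per kb of transcript *Dnmt1* was at 2743 and *Uhrf1* at 2441. The ratio of *Dnmt1* to *Uhrf1* was 0.812 per kb of coding length and 1.124 per kb of transcript, with the other 2 lengths in between, so their order cannot be told from these values.

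*Uhrf2*, on chromosome 19 from 30030513 to 30093722, was a minor member at the level of the pooled mean. Its mean normalized count was 406, which corresponds to about 2432 reads over the 6 libraries, and its level was 169 per kb of coding length. It exceeded 41.0% of protein-coding genes, and 20.1% of the 11430 with a mean of at least 10. The paralog *Uhrf1* was 22.1-fold higher per kb of coding length and 21.2-fold higher per kb of transcript. With all exons of a gene joined as the length the difference was 43.5-fold, as the joined exons of *Uhrf2* span 8590 bases and those of *Uhrf1* 4259. Since the mean combines *Ms4a15* OE and control cells, this ratio holds for the average of the libraries and not for either kind of cell.

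The paralogs shared only short identical runs of coding sequence. The longest run of identical bases in the coding sequences of *Uhrf1* and *Uhrf2*, and that of *Dnmt3a* and *Dnmt3b*, are shown because they are the longest exact matches of these pairs.
*Uhrf1* and *Uhrf2*: CACAACGTCTGTAAGGA
*Dnmt3a* and *Dnmt3b*: GGGCTTCTCCTGGTGGCC
The first, of 17 bases, spans the junction of exons 16 and 17 of *Uhrf1*, from chr17:56322111-56322125 to chr17:56322356-56322357, and that of exons 15 and 16 of *Uhrf2*, from chr19:30092125-30092139 to chr19:30092718-30092719. The second, of 18 bases, lies in exon 8 of both genes, at chr12:3896037-3896054 and chr2:153667551-153667568. Between TET genes the longest runs were 13, 14 and 17 bases. All are far shorter than a window of 100 bases, the shorter of the read lengths given for these libraries. Near matches with mismatches, which an aligner may accept, were not searched for.

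Exact matches of 100 bases were found with genes outside the group and not among the 9 genes. Every stretch of 100 bases in the transcript of each gene was searched for in the GENCODE transcripts of all other genes. No stretch recurred for 6 of the 9 genes, *Uhrf2* among them. For *Tdg* 1297 of 3403 stretches, 38.1%, were also present in other genes, among them the pseudogene *Tdg-ps*. For *Uhrf1* the share was 7.05%, in the gene model *Gm5648*, and for *Dnmt3b* 5.59%, in its duplicate *Dnmt3c*. The levels of these 3 genes are uncertain to that extent, because how reads that fit several places were counted is not given in the sources used here. On the same strand, 0 of the 9 genes had an exon that overlapped another gene. On the opposite strand 6.83% of the joined exon length of *Tdg* is shared with *Glt8d2*, and less than 1% for *Dnmt3a* and *Tet2*.

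**Figure D1:**
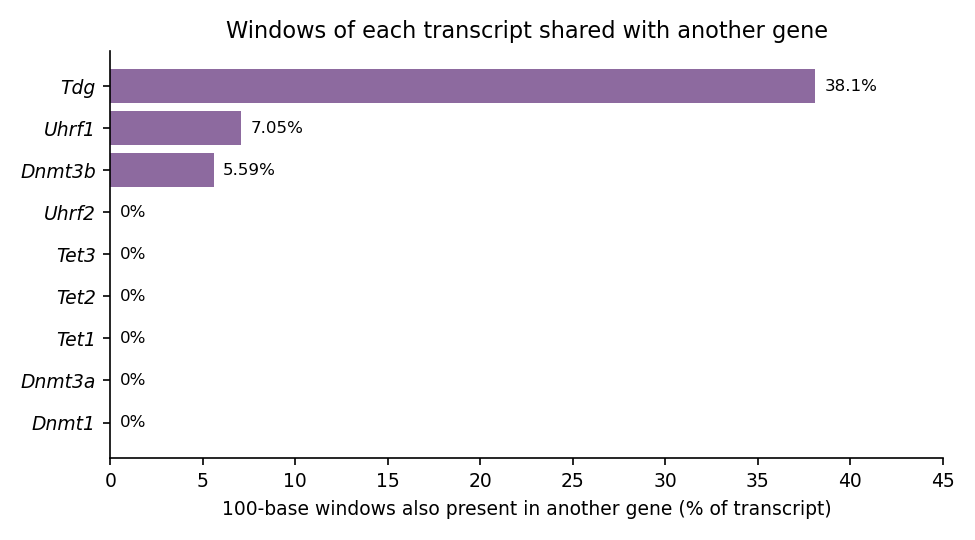
Share of the 100-base stretches of each transcript that also occur in a transcript of another gene, in percent, as bars from 0. *Tdg* stands at 38.1%, *Uhrf1* at 7.05% and *Dnmt3b* at 5.59%, and the other 6 genes at 0.

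The de novo methyltransferases were much lower than *Dnmt1*. *Dnmt3a*, on chromosome 12 from 3806007 to 3914443, had a mean normalized count of 1203 and a level of 442 per kb of coding length, above 51.5% of protein-coding genes. *Dnmt3b*, on chromosome 2 from 153649450 to 153687730, was at 184 and at 71.3 per kb. *Dnmt1* was 6.86-fold higher than *Dnmt3a* and 42.5-fold higher than *Dnmt3b* per kb of coding length. Those ratios were 22.1 and 64.4 per kb of transcript. The *Dnmt3a* transcript has 9685 bases, of which 2724 are coding, and that of *Dnmt3b* has 4318, of which 2580 are coding. *Dnmt3a* exceeded *Dnmt3b* 6.20-fold per kb of coding length and 2.01-fold or more with every other length. *Dnmt3l*, the partner without catalytic activity that stimulates both in germ cells, had a mean of 276 and a level of 219 per kb.

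The TET genes differed widely among themselves. *Tet3*, on chromosome 6 from 83362373 to 83459084, had a mean normalized count of 3172 and a level of 586 per kb of coding length. *Tet2*, on chromosome 3 from 133463679 to 133545139, was at 444 and 77.1 per kb. *Tet1*, on chromosome 10 from 62804570 to 62908996, was the lowest of all 9 genes, with a mean of 37.5 from about 224 reads and 6.12 per kb, above 25.1% of protein-coding genes. When coding genes under a mean of 10 were left out it exceeded 1.4%, *Dnmt3b* 13.4% and *Tet2* 13.9%. *Tet3* exceeded *Tet2* 7.60-fold and *Tet1* 95.7-fold, and *Tet2* exceeded *Tet1* 12.6-fold. The order *Tet3*, *Tet2*, *Tet1* was the same with all 4 lengths, and the ratio of *Tet3* to *Tet1* ranged from 78.4 to 207. *Tet1* is a family member known from embryonic stem cells, whose markers *Nanog* and *Zfp42* had means of 0.9003 and 0.376. The relation of its level to cell type was not tested.

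*Tdg*, on chromosome 10 from 82629828 to 82650799, had a mean normalized count of 1266. With its short coding sequence of 1263 bases it came to 1002 per kb, below *Uhrf1* and *Dnmt1* and 1.71-fold above *Tet3*. Per kb of transcript the order turned, with *Tet3* at 534 and *Tdg* at 362. When only stretches found in no other gene were counted as length, an alternative added after the data had been seen, *Tdg* was at 601 and *Tet3* at 543 per 1000 stretches. The relative place of *Tdg* and *Tet3* thus depended on the length used. *Tdg* remained above *Tet2* with all 4 lengths, by 7.34-fold or more.

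**Figure D2:**
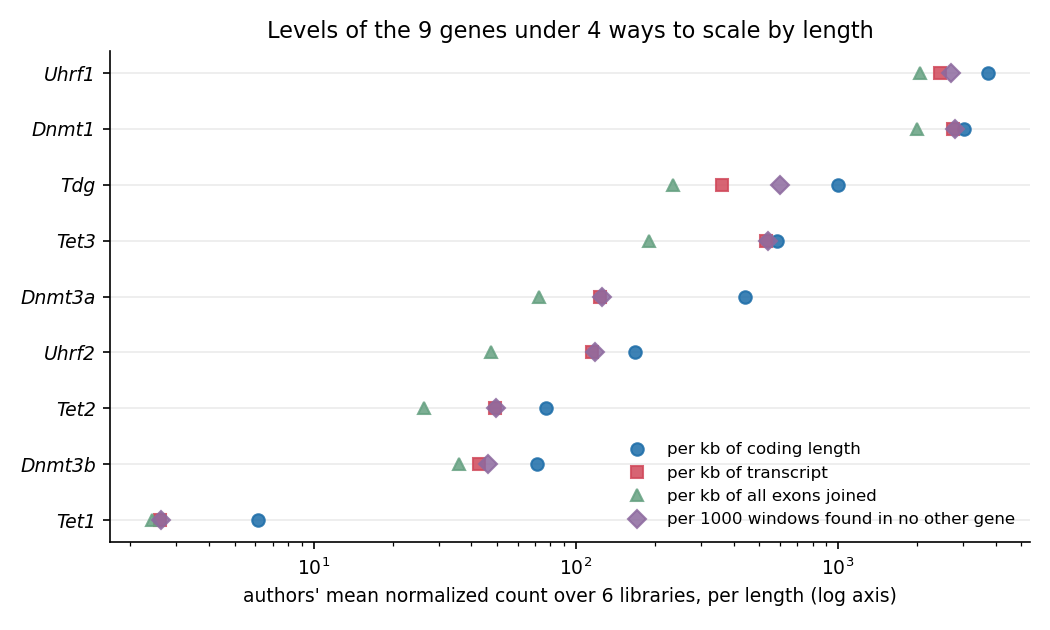
Mean normalized count of each gene over 6 libraries divided by 4 kinds of length, on a log axis, 1 point per gene and length. *Uhrf1* and *Dnmt1* lie between 1996 and 3732 with every length, and *Tet1* between 2.42 and 6.12.

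Among protein-coding genes 5 of the 9 were above the median level of 392 per kb of coding length, and *Uhrf2*, *Tet2*, *Dnmt3b* and *Tet1* were below it. For *Dnmt3a* this depended on the length. It was above 51.5% of genes by coding length, 44.6% per kb of transcript and 43.4% with all exons joined. The genes that lie next to each other in the order and change places with the length are *Uhrf1* and *Dnmt1*, *Tdg* and *Tet3*, and *Tet2* and *Dnmt3b*. *Tet2* and *Dnmt3b*, at 77.1 and 71.3 per kb, changed places when all exons were joined. *Dnmt3a* and *Uhrf2* kept their order, with a ratio of 2.62 per kb of coding length and 1.08 per kb of transcript. This is the order of the pooled means and need not hold in *Ms4a15* OE or control cells alone.

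**Figure D3:**
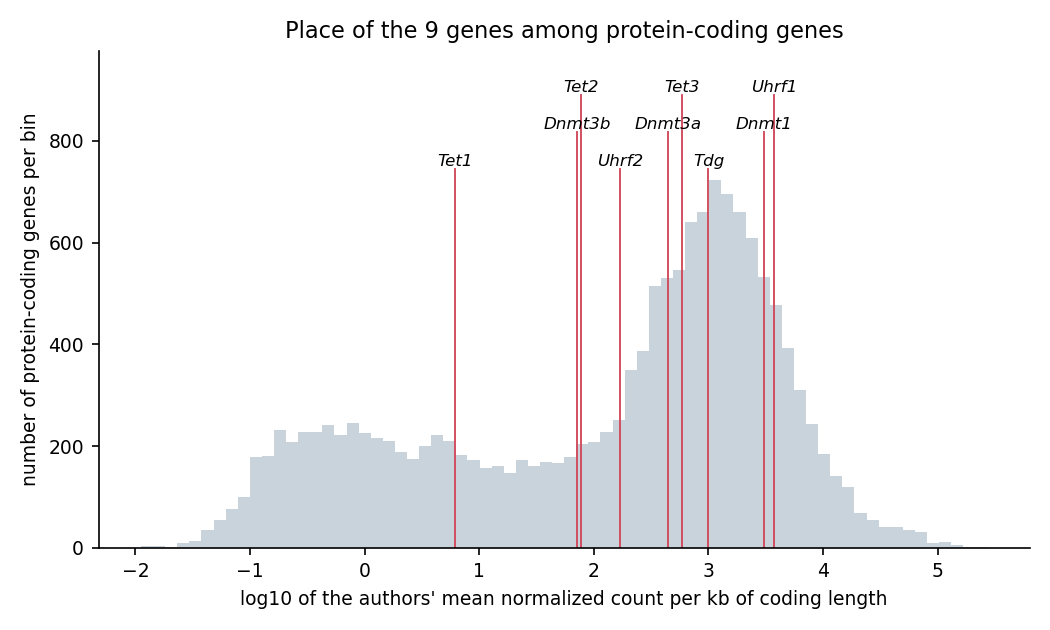
Histogram of the log10 mean normalized count per kb of coding length for 15483 protein-coding genes, with a line for each of the 9 genes. *Uhrf1* and *Dnmt1* lie on the right shoulder, above 87.1% and 84.2% of genes, and *Tet1* in the low tail, above 25.1%.

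Partners of methylation were mostly high. Of 25 such genes 22 were in the table, and 21 of these had a mean of 100 or more, against 54.7% of all genes in the table, with a median level of 1405 per kb. *Cbx5*, a heterochromatin protein, *Pcna*, the replication clamp, and *Cbx3* were highest at 33831, 21475 and 9741 per kb of coding length. Per kb of transcript the order was *Pcna* at 11077, *Trim28*, a corepressor, at 5588, *Cbx3* at 2831 and *Cbx5* at 2202. *Hells*, a remodeller needed for methylation of repeats, was at 3696 per kb of coding length and 1551 per kb of transcript, and *Usp7*, the deubiquitylase that stabilizes UHRF1 and DNMT1, at 1850.5 per kb of coding length. *Zbtb24* and *Nsd1* were the lowest at 35.2 and 13.0 per kb. Genes listed from the families of methylated CpG readers were all present, with 11 of 11 at a mean of 100 or more. *Mbd3* and *Mbd2* were the highest of them at 4867 and 3281 per kb. Not every member of these families, *Mbd3* among them, is known as a reader of methylated CpG, and binding was not examined. *Zbtb4* was lowest at 46.8. Among CXXC proteins, which bind unmethylated CpG, 5 of the 6 in the table reached 100, with *Kdm2a* at 2044 and *Cxxc4* lowest at 3.02 per kb of coding length. *Kdm2a* was above *Cxxc1* with coding length and below it per kb of transcript, at 830 against 1130.

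Base excision repair completes demethylation after TDG. The list for it had 13 genes in the table, all with a mean of 100 or more and a median level of 1168 per kb. It also takes in other glycosylases and genes such as *Gadd45g* that are not repair enzymes. Over all genes in the table the share at 100 or more was 54.7%. *Apex1*, the endonuclease that cuts the site left by TDG, was highest at 7661 and *Neil1* lowest at 127 per kb. Of 19 genes that supply S-adenosylmethionine, the methyl donor, 16 reached 100, and the median was 2208 per kb. *Mat2a*, which makes S-adenosylmethionine, was at 18770.5 per kb, whereas its liver form *Mat1a* was at 9.21 and *Bhmt2* at 0.284. Of 15 genes that make or limit cofactors of TET enzymes 14 reached 100, with a median of 3318, *Dlst* at 7368 and *Slc23a1*, a vitamin C carrier, lowest at 0.282 per kb. The other vitamin C carrier on the list, *Slc23a2*, was at 260 per kb. *Dlst* was highest with coding length, whereas *Idh2* was highest per kb of transcript, at 3917 against 3630.5. All 6 of these lists had a median above the 442 per kb of the 9 genes. The lists differ in size and were not tested against each other.

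**Figure D4:**
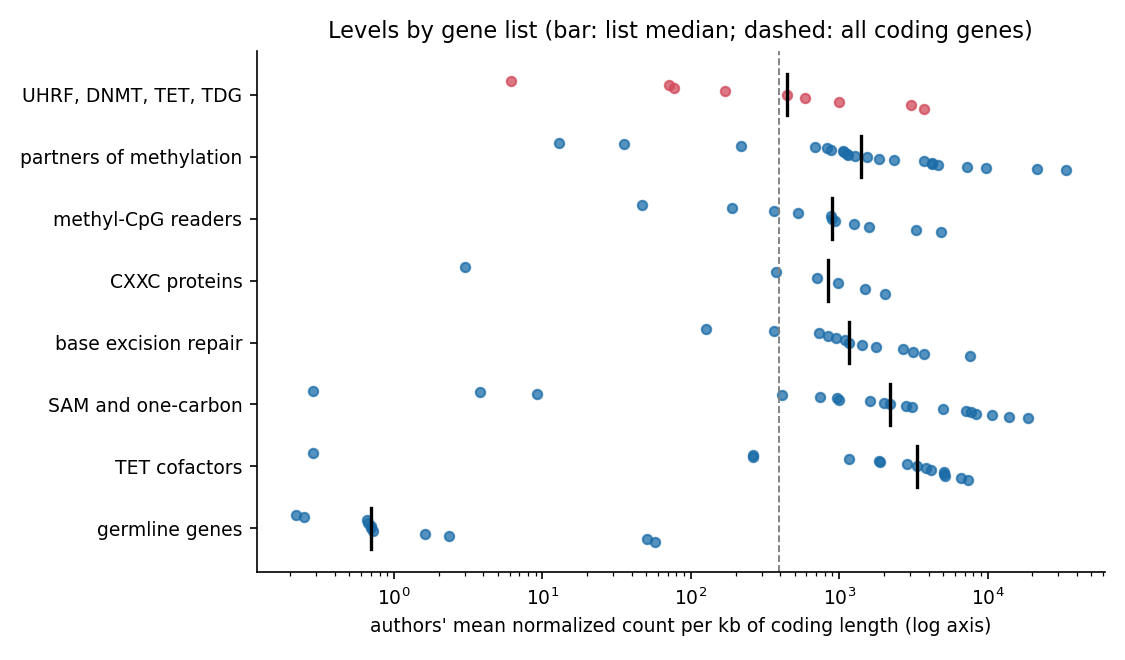
Mean normalized count per kb of coding length on a log axis, 1 point per gene, for the 9 genes and 7 related lists, with the median of each list as a bar and the median of protein-coding genes, 392, as a dashed line. The germline list lies at 57.1 or lower, under all other list medians.

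Germline genes that are known to be silenced by promoter methylation in somatic cells were close to undetected. Of 16 such genes 11 were in the table, with a median mean normalized count of 0.690. Of these, 9 exceeded the floor of 3 reads over the 6 libraries, equal to 0.501 normalized counts. That is 81.8%, near the 88.9% of all genes in the table over the floor. Only *Taf7l* and *Tuba3a* exceeded 10, at 80.7 and 68.8, or 18.2% against 67.7% of all genes. *Dazl*, a regulator of germ cell translation, was at 0.624, and *Ddx4*, a germ cell helicase, at 0.473, under the floor. The *Dazl* promoter is shown with each CpG in capitals, because such sites are what the methylation machinery acts on.
*Dazl*, chr17:50293571-50293870, reverse strand: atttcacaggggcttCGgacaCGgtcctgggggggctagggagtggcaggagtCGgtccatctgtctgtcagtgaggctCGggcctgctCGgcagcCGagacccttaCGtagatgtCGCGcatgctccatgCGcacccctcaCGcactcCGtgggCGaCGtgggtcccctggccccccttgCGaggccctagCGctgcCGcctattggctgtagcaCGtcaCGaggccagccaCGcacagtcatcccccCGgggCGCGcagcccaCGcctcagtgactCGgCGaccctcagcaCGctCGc
It holds 28 CpG, an observed over expected ratio of 0.795. The *Uhrf2* window also has 28 CpG, with a ratio of 0.825, at a mean normalized count of 406. Of the 9 genes 8 had a window with a ratio of 0.6 or more, *Tet3* being the exception at 0.576, and *Tet2* was highest at 1.17. The single windows listed for *Tet3* and *Tet1*, at chr6:83441629-83441928 and chr10:62887275-62887574, lie inside gene models that reach out to 83459084 and 62908996. Outer starts of both genes were not measured. With the first window listed for each gene the count at 0.6 or more was 6, as *Uhrf1* was then at 0.472 and *Dnmt1* at 0.101. Of the 11 germline genes 7 had such a window, or 63.6%. Among 10940 coding genes the share was 65.5% with the highest ratio of each gene and 62.2% with the first window. DNA methylation itself was not measured in these libraries.

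**Figure D5:**
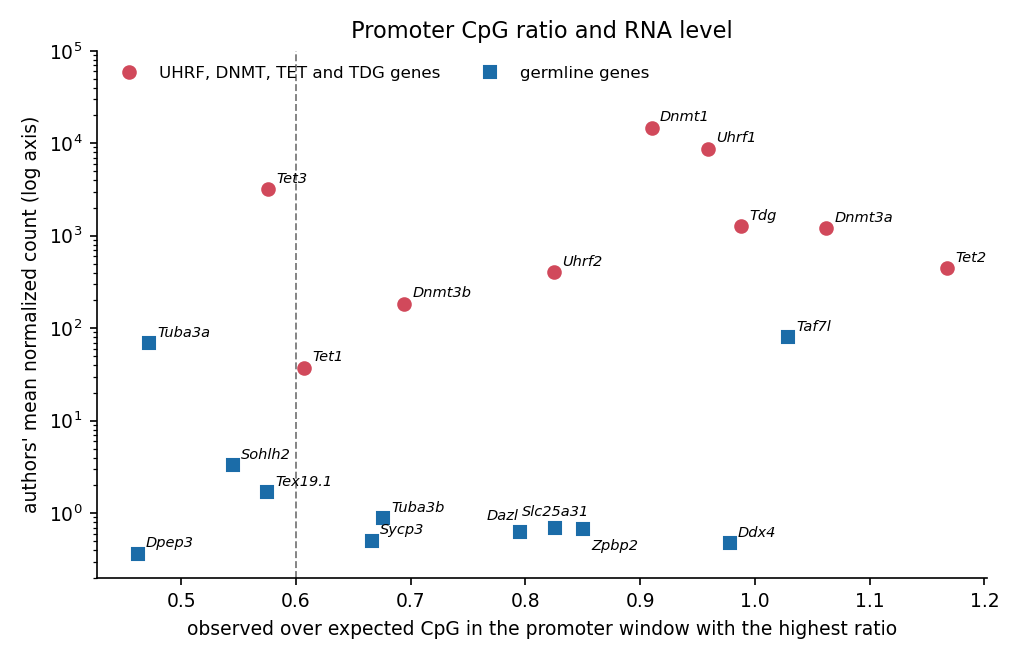
Observed over expected CpG in the promoter window with the highest ratio against the mean normalized count on a log axis, for the 9 genes (circles) and 11 germline genes (squares), with a dashed line at 0.6. The 9 genes lie at 37.5 or higher, and 9 of the germline genes at 3.30 or lower, over much the same range of CpG ratios.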

How the data were processed

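Poly(A)-selected RNA of 3 *Ms4a15* OE and 3 control libraries was sequenced. Per the study's methods, reads were aligned to mm10 with STAR and counted per gene with HTSeq-count, while the submitters' processing notes name TopHat, Cufflinks and Cuffdiff. The authors deposited 1 table, whose signal column is DESeq2's average of size-factor-scaled counts across the 6 libraries. Its 5 other columns hold the authors' own comparison (log2 fold change, standard error, p-value, adjusted p-value, direction) and were not used. Single libraries were not analysed here, so the planned group tests were not run.

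Lengths, positions and overlaps came from GENCODE M21 (GRCm38), where 16227 of 19078 symbols (85.1%) matched directly or through RefSeq synonyms. Stretches of 100 bases were compared with all GENCODE transcripts. Promoters came from RefSeq (GRCm38.p6), and all 9 genes matched. The coding length is that of the longest coding sequence, as no protein table was at hand. Planned protein identities were not computed.

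By the rule for named genes, all 9 members were named, and further names could be drawn from the 3 highest and 2 lowest of each list per kb and from partners such as *Dnmt3l*. *Dazl*, *Mat1a*, *Trim28*, *Cxxc1*, *Idh2* and the marker genes were named after values were seen. Members and lists were chosen with earlier results of these data known. On simulated data with 18520 genes, 6 known size factors were recovered with a largest error of 3.6e-06. Python 3.11.15, numpy 2.4.6, pandas 2.3.3 and matplotlib 3.10.9 were used. Intervals are not given, as depth per library and gene is not known; read numbers are the mean divided by 0.167, the average value of 1 read, and are approximate.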

Additional observations from a re-analysis of the deposited data

How the results depend on the processing

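No paired analysis was possible because the table used here has 1 average per gene, and for the same reason the other tool, the filter on low counts and the fits that leave out a replicate were planned and not run. Without scaling by length 6 of the 9 genes changed rank, with transcript length 4, with all exons joined 2 and with stretches found in no other gene 2. The last pair of lengths was added after seeing the data. The 5 genes above the median level per kb of coding length became 3 when ranked among the 11430 coding genes with a mean of at least 10. *Dnmt3a* and *Tet3* fell below it, which follows from leaving out low genes. Per kb of transcript or of all exons joined, *Dnmt3a* was also below the median of all coding genes. Of the germline list, 9 genes over the floor became 2 at a minimum mean of 10 and 0 at 100. Over all genes in the table the shares were 88.9%, 67.7% and 54.7%. For the other 7 lists the count stayed within 1.5 times under both minimums. Restricting the promoter window with the highest ratio to the bases before the start moved 0 of 9 genes across a CpG ratio of 0.6, and taking the first window listed, added after seeing the data, moved *Uhrf1* and *Dnmt1* below it. Protein identity could not be computed under either denominator.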

Other observations

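Median RNA levels were higher at higher CpG density over the 10940 coding genes whose symbol was found in the promoter table. With the first window listed for each gene, 6805 genes with an observed over expected CpG ratio of 0.6 or more had a median mean normalized count of 1518, 1474 genes with a ratio from 0.4 to 0.6 one of 316, and 2661 genes under 0.4 one of 5.17. The 11 germline genes had a median ratio of 0.676 and a median of 0.690 normalized counts. This is a description across genes of the pooled mean, with no test.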
